A study of Homo sapiens with 30 samples.

Results

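The ADAM and ADAMTS proteases and the ADAMTS-like proteins were followed across 30 expression arrays of WI-38, a long-used fibroblast line from human lung. Members were the features whose only gene symbol begins with ADAM, ADAMTS or ADAMTSL and a number, with antisense and pseudogene names left out. The rule found 34 genes among all features of the array table, of which 21055 carry exactly 1 gene symbol. The name pattern matched 39 features. It lost 2 antisense genes (ADAMTSL4-AS1 and ADAMTS9-AS2), 1 gene named as a pseudogene (ADAMTS7P1) and 2 that RefSeq lists as pseudogenes (ADAM1A and ADAM6). Each of the 34 genes had 1 feature.

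The cells were grown in 3% O2 and 5% CO2 and taken into senescence along 2 courses, each read on Affymetrix HTA 2.0 arrays from total RNA. In the RAF course an oncogene in the cells was induced with 100 ng/ml doxycycline, and the arrays are labelled RAF T0, 12, 24, 48, 72 and 96 h. In the replicative course the cells were driven to exhaustion under 21% O2, and the arrays are labelled replicative T0, 144, 264, 432, 624, 792, 1008, 1368 and 2112 h. Each of the 15 labels has 2 arrays, 12 for RAF and 18 for the replicative course. The T0 arrays are labelled as 0 h, which is read here as before either agent. If the labels and this reading hold, the oncogene, doxycycline and time cannot be told apart against RAF T0. Likewise, time and the step in oxygen cannot be told apart against replicative T0. The form of RAF, its promoter and whether the line is 1 clone were not stated in the labels. Values of partner arrays are joined by a slash below, replicate 1 first. The RAF replicates are described as biological and nothing is stated for the replicative ones, so their p-values may measure technical spread only.

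ADAMs are membrane-anchored metalloproteases that cut the outer parts of other membrane proteins free, a step called shedding, and so release growth factors, cytokines and receptors. ADAMTS proteins are their secreted relatives. They carry thrombospondin repeats and act in the matrix, where they trim procollagens, cut proteoglycans such as versican and aggrecan, or bind the fibrillin microfibril. ADAMTSL proteins keep the repeats but lack the protease domain. Fibroblasts make many members of the family, and both shedding and matrix remodelling are known features of the senescent secretory phenotype.

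The values were read as log2 levels in steps of 0.1, from -1.6 to 14, with a median of 5.5 in every array. Partner arrays correlated at 0.992 to 0.997 over all features, and 28 of the 30 arrays were most like their partner. The exceptions were the RAF 48 h arrays. The first principal component held 64.2% of the variance and put 18 arrays (all RAF labels and replicative 144, 264 and 432 h) on one side and 12 (replicative T0, 624, 792, 1008, 1368 and 2112 h) on the other. The labels did not follow proliferation: the mean level of 23 genes of G2 and mitosis was lowest in the arrays labelled RAF T0 (5.34 ± 0.10, SD, n = 2) and highest in those labelled replicative T0 (8.62 ± 0.01). It stood at 8.26 at RAF 12 h and 7.91 at RAF 96 h, and in the replicative course at 8.24 at 624 h and 8.16 at 2112 h, against 5.60 at 792 h and 5.57 at 1008 h. Groups are therefore named below as their labels name them. Whether any label is wrong could not be settled from the arrays, and every difference from T0 rests on the T0 labels. Only 1 of 3 RAF kinase genes had a feature (ARAF, with no difference between RAF 96 h and T0), so the induced oncogene could not be checked. The mean level of 10 fibroblast markers ran from 8.41 to 9.57 over the labels, and 8 of them lay above the array median in every array, from FAP (6.3 to 7.0) to VIM (11.5 to 12.1). LUM (4.6 to 8.9) and S100A4 (5.1 to 6.8) fell below that median in some arrays. That of 7 epithelial markers ran from 5.99 to 6.24, of 7 endothelial markers from 5.54 to 5.87 and of 4 leukocyte markers from 6.33 to 6.85. EPCAM, CDH1, PECAM1, CDH5, KDR, CD3E and ITGAM lay below the array median in every array. KRT8, KRT18, KRT19, TEK, CLDN5, VWF, TIE1 and CD68 lay above it in every array. KRT5, SFTPC and CD14 reached or crossed it in some arrays. In bulk RNA, fewer cells of a type and less RNA per cell cannot be told apart.

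Across the 6 RAF labels, 16 of the 34 members (47.1%) differed by the joint test, against 19.6% of all features. Without the RAF T0 arrays 9 members passed, a count given without the share of all features in that fit. Across the 9 replicative labels, 29 members passed (85.3%), against 74.2% of all features. In both courses 16 passed, and the share of all features past both tests was not computed. Those past neither test were ADAM11, ADAMTS16, ADAMTS17, ADAMTSL2 and ADAMTSL3, whose group means spanned 0.15 or less over all 15 labels. The heatmap of the group means shows which members set themselves apart: ADAMTS19 spanned 5.10 on the log2 scale over the 15 labels, ADAM19 3.10 and ADAMTS3 3.00. A member was called at an adjusted p under 0.05 by limma's moderated test, with Benjamini-Hochberg adjustment over all features, here and in every comparison that follows.

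**Figure D1:**
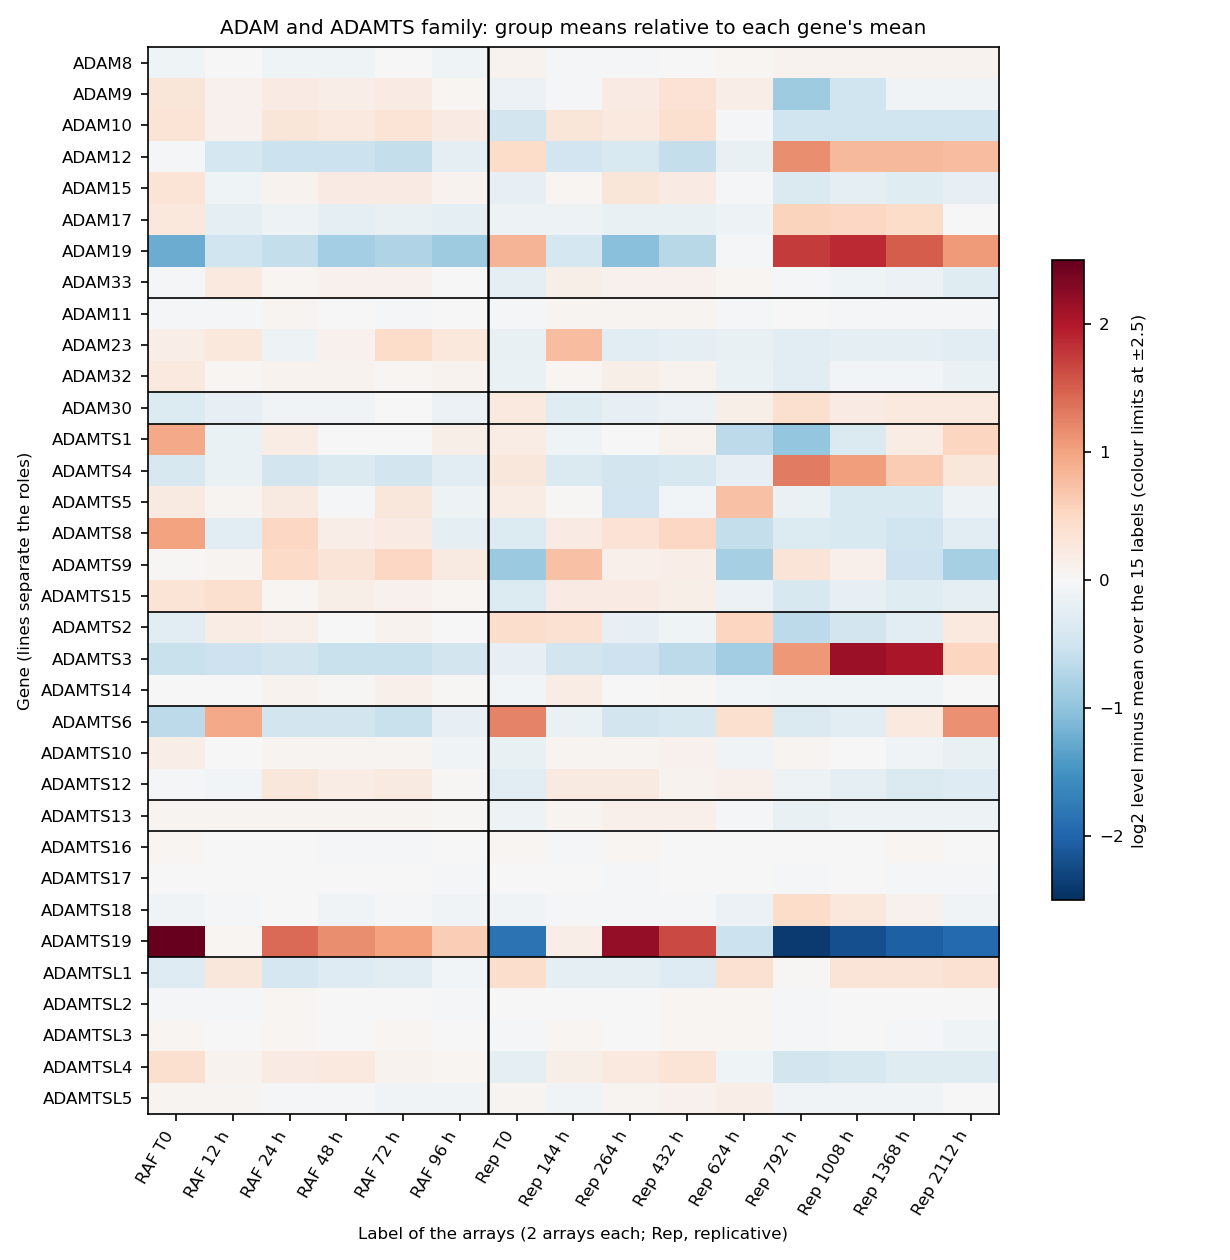
Rows are the 34 members, ordered by role and separated by lines. Columns are the 15 labels (2 arrays each), and colour is the group mean minus the gene's mean over the labels on the log2 scale, with colour limits at ±2.5. ADAMTS19 is highest at RAF T0 and at replicative 264 h and 432 h, near its mean at RAF 12 h and replicative 144 h, and low at replicative T0 and from 792 h on, while ADAM19 and ADAMTS3 are high at 792, 1008 and 1368 h.

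Among the 8 membrane sheddases, 5 differed across the RAF labels (ADAM12, ADAM15, ADAM17, ADAM19 and ADAM33), and all 8 differed across the replicative labels, beside 19.6% and 74.2% of all features. ADAM17 sheds TNF and ligands of the EGF receptor. In the RAF course ADAM17 measured 8.0/8.0 for T0, 7.5/7.5 for 12 h, 7.6/7.6 for 24 h, 7.6/7.4 for 48 h, 7.6/7.5 for 72 h, and 7.5/7.5 for 96 h. Both T0 arrays lay above every later RAF array. The replicative arrays measured 7.6/7.6 for T0, 7.6/7.6 for 144 h, 7.5/7.6 for both 264 h and 432 h, 7.6/7.6 for 624 h, 8.3/8.3 for 792 h, 8.2/8.3 for 1008 h, 8.2/8.2 for 1368 h, and 7.8/7.7 for 2112 h. The labels 792, 1008 and 1368 h stood above all other replicative arrays. The difference from T0 was 0.70 ± 0.06 (SE) at 792 h (limma adjusted p = 1.01e-06), a 1.62-fold rise.

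ADAM19, also called meltrin beta, releases neuregulins. ADAM19 read 7.3/7.3 for RAF T0, 8.0/8.1 for 12 h, 7.8/8.1 for 24 h, 7.8/7.6 for 48 h, 7.8/7.8 for 72 h, and 7.7/7.6 for 96 h. The T0 pair lay below every other RAF array. It passed as higher at 12 h (0.75 ± 0.10, limma adjusted p = 0.00157), 24 h and 72 h, but not at 96 h (0.35 ± 0.10, limma adjusted p = 0.0624). The replicative levels of ADAM19 were higher at their peak: 9.4/9.4 for T0, 8.1/8.1 for 144 h, 7.5/7.5 for 264 h, 7.9/7.8 for 432 h, 8.5/8.5 for 624 h, 10.3/10.3 for 792 h, 10.4/10.4 for 1008 h, 10.0/10.1 for 1368 h, and 9.7/9.5 for 2112 h. No array from 144 h to 624 h reached the T0 level, and every array from 792 h on exceeded it. The difference from T0 was -1.90 ± 0.06 at 264 h and 1 ± 0.06 at 1008 h (limma adjusted p = 6.08e-10 and 1.45e-07).

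ADAM12, also called meltrin alpha, is known as a marker of activated fibroblasts and cuts IGF-binding proteins. ADAM12 measured 6.7/6.7 for RAF T0, 6.3/6.3 for 12 h, 6.2/6.2 for both 24 h and 48 h, 6.2/6.1 for 72 h, and 6.5/6.5 for 96 h. Every later RAF array was below the T0 pair. In the replicative course it measured 7.2/7.2 for T0, 6.3/6.2 for 144 h, 6.3/6.4 for 264 h, 6.2/6.1 for 432 h, 6.5/6.6 for 624 h, 7.9/7.9 for 792 h, 7.5/7.6 for both 1008 h and 1368 h, and 7.5/7.5 for 2112 h. As with ADAM19, the 4 labels from 144 h to 624 h lay below T0 and the 4 later ones above it. The differences were -1.05 ± 0.06 at 432 h and 0.70 ± 0.06 at 792 h (limma adjusted p = 7.54e-08 and 3.16e-06).

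ADAM9, a widely made sheddase, moved the other way in part of the replicative course. The replicative arrays measured 10.6/10.7 for T0, 10.7/10.8 for 144 h, 11.0/11.0 for 264 h, 11.1/11.2 for 432 h, 10.9/11.0 for 624 h, 9.9/9.9 for 792 h, 10.3/10.3 for 1008 h, and 10.7/10.7 for both 1368 h and 2112 h. The 792 h pair was lowest, with a difference from T0 of -0.75 ± 0.06 (limma adjusted p = 5.35e-07), a 1.68-fold fall. Its RAF group means spanned only 0.25 and missed the joint test (limma adjusted p = 0.0559).

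ADAM15, whose disintegrin domain carries an integrin-binding motif, measured 8.2/8.3 for RAF T0, 7.8/7.8 for 12 h, 8.0/8.0 for 24 h, 8.1/8.1 for both 48 h and 72 h, and 8.0/8.0 for 96 h. Its T0 pair was the highest of the course, and the 12 h fall was 0.45 ± 0.04 in size (limma adjusted p = 0.000219). Over the replicative labels its group means ran from 7.55 at 792 h to 8.2 at 264 h. ADAM10, which cuts Notch and N-cadherin, passed the replicative joint test with a range of 0.90: its group means were 8.80 at each of the 4 labels from 792 h on and 9.70 at 432 h. It was called once in the RAF course, at 12 h (-0.25 ± 0.05, limma adjusted p = 0.0139). ADAM33, a gene of airway mesenchyme linked to asthma, had ranges of 0.30 in the RAF and 0.45 in the replicative course and passed both joint tests. ADAM8, best known from leukocytes, spanned 0.15 over the replicative labels, passed that joint test (limma adjusted p = 0.0422) and was called at no RAF label.

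Of the 3 ADAMs that lack a working zinc site, ADAM23 and ADAM32 differed across the replicative labels and none across the RAF labels. ADAM23, an adhesion protein of neurons, stood at 7.0/6.8 for replicative 144 h and between 5.8 and 6.0 in every other replicative array. Its difference from T0 at 144 h was 0.95 ± 0.08 (limma adjusted p = 2.06e-06). Its RAF group means ran from 6.00 to 6.60 and missed the joint test (limma adjusted p = 0.0534). ADAM32, mainly a testis gene, spanned 0.40 over the replicative labels. ADAM30, another testis gene that keeps its zinc site, was dim and uneven between partners. It spanned 0.70 over the replicative labels (limma adjusted p = 0.0137) and was lower than T0 at 144, 264 and 432 h. ADAM11, a neuronal member with no zinc site, spanned 0.10.

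Of the 6 proteoglycanases, 5 differed across the RAF labels, and all 6 across the replicative labels, beside the same 19.6% and 74.2% of all features. ADAMTS1 cuts versican and aggrecan and binds heparin. In the RAF course ADAMTS1 measured 10.8/10.8 for T0, 9.7/9.7 for 12 h, 10.1/10.0 for 24 h, 10.0/9.7 for 48 h, 9.8/9.9 for 72 h, and 10.0/10.0 for 96 h. The T0 pair lay above all others, and the fall at 12 h was 2.14-fold (-1.10 ± 0.09, limma adjusted p = 0.000125). The replicative arrays gave 10.1/10.0 for T0, 9.7/9.8 for 144 h, 9.8/9.9 for 264 h, 9.9/10.0 for 432 h, 9.2/9.2 for 624 h, 8.9/8.9 for 792 h, 9.5/9.5 for 1008 h, 10.0/10.1 for 1368 h, and 10.4/10.4 for 2112 h. The lowest pair was at 792 h (-1.15 ± 0.06 against T0, limma adjusted p = 2.09e-08) and the highest at 2112 h.

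ADAMTS8, a weak aggrecanase known from lung, had its highest pair at RAF T0. Its RAF values were 8.5/8.4 for T0, 7.2/7.1 for 12 h, 7.9/8.0 for 24 h, 7.8/7.4 for 48 h, 7.7/7.6 for 72 h, and 7.2/7.2 for 96 h. The 12 h and 96 h pairs were the lowest. The differences from T0 were -1.30 ± 0.12 at 12 h (limma adjusted p = 0.000202), -0.85 at 48 h and -0.80 at 72 h, while -0.50 at 24 h missed the threshold (limma adjusted p = 0.0514). Its replicative group means ran from 6.85 at 624 h to 7.95 at 432 h, and ADAMTS8 was called higher than T0 at 144, 264 and 432 h. ADAMTS15, a versicanase whose gene neighbours ADAMTS8 on chromosome 11 with 0 protein-coding genes between, was also called higher at those 3 labels (0.50 to 0.55). Its RAF means ran from 6.10 at 24 h and 96 h to 6.45 at 12 h, where the ADAMTS8 mean was at its lowest.

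ADAMTS9 cuts versican and works at the cell surface. In the RAF arrays ADAMTS9 read 5.6/5.6 for T0, 5.6/5.7 for 12 h, 6.0/6.1 for 24 h, 6.0/5.8 for 48 h, 6.1/6.1 for 72 h, and 5.8/5.8 for 96 h. All arrays from 24 h on were above the T0 and 12 h arrays. Over the replicative labels the pairs were 4.7/4.6 for T0, 6.4/6.2 for 144 h, 5.8/5.6 for 264 h, 5.8/5.7 for 432 h, 4.8/4.7 for 624 h, 5.9/5.9 for 792 h, 5.7/5.7 for 1008 h, 5.1/5.0 for 1368 h, and 4.8/4.7 for 2112 h. The T0, 624 h and 2112 h pairs were the lowest of this course. Against T0 the rise was 3.14-fold at 144 h (1.65 ± 0.08, limma adjusted p = 2.45e-08) and 2.38-fold at 792 h.

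ADAMTS4 and ADAMTS5 are the main aggrecanases of cartilage. ADAMTS4 measured 6.6/6.7 for replicative T0, 6.0/6.0 for 144 h, 5.9/5.9 for 264 h, 5.9/6.0 for 432 h, 6.2/6.1 for 624 h, 7.7/7.6 for 792 h, 7.3/7.5 for 1008 h, 7.0/7.0 for 1368 h, and 6.6/6.7 for 2112 h. The 2112 h pair equalled the T0 pair, with lower labels before 792 h and higher ones from 792 h to 1368 h. The rise at 792 h was 1 ± 0.07 (limma adjusted p = 4.5e-07). Its RAF group means spanned 0.30, enough for the joint test (limma adjusted p = 0.00727). ADAMTS5 measured 6.8/6.6 for replicative T0, 6.7/6.4 for 144 h, 6.1/6.0 for 264 h, 6.6/6.3 for 432 h, 7.3/7.2 for 624 h, 6.4/6.3 for 792 h, 6.1/6.2 for both 1008 h and 1368 h, and 6.5/6.3 for 2112 h. Only the 624 h pair stood above T0 (0.55 ± 0.12, limma adjusted p = 0.00919), a call that was lost without the first 624 h array (adjusted p = 0.0762) or the second T0 array (0.0886). ADAMTS5 lies beside ADAMTS1 on chromosome 21 with 0 protein-coding genes between them, and at 624 h the pair differed from T0 in opposite directions (0.55 and -0.85). No RAF comparison of ADAMTS5 passed, and its partner arrays there differed by up to 0.5 (6.5/7.0 for 24 h).

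Of the 3 enzymes that remove the N-propeptide of fibrillar procollagens, ADAMTS2 passed both joint tests, and ADAMTS3 and ADAMTS14 the replicative one. ADAMTS3, which also activates VEGF-C, had the second widest range of the replicative course after ADAMTS19. It measured 4.9/4.8 for T0, 4.7/4.5 for 144 h, 4.6/4.5 for 264 h, 4.4/4.4 for 432 h, 4.2/4.2 for 624 h, 6.2/6.1 for 792 h, 7.1/7.3 for 1008 h, 7.0/7.2 for 1368 h, and 5.6/5.6 for 2112 h. All arrays from 792 h on lay above all earlier ones. The difference from T0 was 2.35 ± 0.09 at 1008 h, a 5.10-fold rise (limma adjusted p = 1.52e-09), and 2.25 at 1368 h. In the 12 RAF arrays ADAMTS3 stayed between 4.4 and 4.6, and none of its RAF comparisons passed.

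ADAMTS2, the enzyme lost in a form of Ehlers-Danlos syndrome, measured 7.8/7.8 for RAF T0, 8.2/8.3 for 12 h, 8.1/8.3 for 24 h, 8.1/8.0 for 48 h, 8.2/8.1 for 72 h, and 8.1/8.0 for 96 h. The T0 pair was the lowest of the course. In the replicative course ADAMTS2 measured 8.5/8.5 for T0, 8.5/8.4 for 144 h, 7.9/7.8 for 264 h, 8.0/7.9 for 432 h, 8.6/8.6 for 624 h, 7.4/7.4 for 792 h, 7.6/7.6 for 1008 h, 7.8/7.8 for 1368 h, and 8.3/8.3 for 2112 h. At 792 h, where ADAMTS3 was 2.46-fold above T0, ADAMTS2 was 2.14-fold below it (-1.10 ± 0.05, limma adjusted p = 9.12e-09). The mean level of 11 TGF-beta-responsive and contractile genes was also low at 792, 1008 and 1368 h (8.05 to 8.17, against 9.40 at T0 and 9.61 at 624 h), and its part in these differences was not tested. ADAMTS14 spanned 0.30 over the replicative labels and was called once against T0, at 144 h (0.25).

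ADAMTS6 and ADAMTS10 bind fibrillins, and ADAMTS12 cuts the cartilage protein COMP. In the RAF course ADAMTS6 measured 4.3/4.2 for T0, 5.9/5.8 for 12 h, 4.4/4.5 for 24 h, 4.5/4.4 for 48 h, 4.4/4.3 for 72 h, and 4.7/4.7 for 96 h. The 12 h pair stood far above the rest, 3.03-fold over T0 (1.60 ± 0.07, limma adjusted p = 7.99e-06). The replicative arrays measured 6.1/6.2 for T0, 4.8/4.7 for 144 h, 4.4/4.5 for 264 h, 4.5/4.5 for 432 h, 5.3/5.3 for 624 h, 4.6/4.5 for 792 h, 4.6/4.7 for 1008 h, 5.1/5.2 for 1368 h, and 6.1/6.0 for 2112 h. ADAMTS6 was below T0 at every label from 144 h to 1368 h and returned to the T0 level at 2112 h (-0.10 ± 0.07, limma adjusted p = 0.55). ADAMTS10, a gene of Weill-Marchesani syndrome, spanned 0.25 and 0.30 in the 2 courses. ADAMTS12 spanned 0.35 and 0.60 and was highest at RAF 24 h and at replicative 144 h and 264 h.

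The study's title names AP-1, a dimer of FOS, JUN and related factors, so the promoters of the members were read for its site. RefSeq promoters (GRCh38.p14, a window around the transcription start) were at hand for 23 of the 34 members. The letters TGANTCA for AP-1, TGACGTCA for the cyclic AMP response element CRE and GGAATG for the YAP partner TEAD were searched on both strands. No 2 of these motifs overlapped in the members printed here. AP-1 letters stood in 1 of the 23 promoters (ADAMTS12) and in 7.76% of 27305 promoters, CRE letters in 1 (ADAMTS6) and in 1.98%, and TEAD letters in 4 (ADAM17, ADAMTS6, ADAMTS12 and ADAMTS13) and in 14%. Those 2 matched promoters are shown with that of ADAMTS19, the member of widest range, which holds none of the motifs. The stretches lie at chr5:33891961-33892240 (minus strand) for ADAMTS12, chr5:65481891-65482170 (minus strand) for ADAMTS6 and chr5:129460048-129460327 (plus strand) for ADAMTS19, and each runs from 250 bases before to 30 after the start. Capitals mark matches on either strand. In ADAMTS12 the AP-1 letters begin 84 bases before the start, and in ADAMTS6 the CRE letters begin 7 bases before it. A match is a description of the letters and not of binding.
ADAMTS12: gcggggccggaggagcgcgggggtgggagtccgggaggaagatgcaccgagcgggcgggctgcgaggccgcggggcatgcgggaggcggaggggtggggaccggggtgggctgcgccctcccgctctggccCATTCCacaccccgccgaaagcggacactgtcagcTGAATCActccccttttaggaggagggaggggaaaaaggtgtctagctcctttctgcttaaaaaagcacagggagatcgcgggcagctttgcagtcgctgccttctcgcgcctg
ADAMTS6: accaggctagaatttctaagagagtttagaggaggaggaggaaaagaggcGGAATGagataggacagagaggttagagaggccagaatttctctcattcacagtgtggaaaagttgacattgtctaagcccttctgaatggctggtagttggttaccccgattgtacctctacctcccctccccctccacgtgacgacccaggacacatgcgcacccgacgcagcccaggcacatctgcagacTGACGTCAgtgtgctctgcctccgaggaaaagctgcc
ADAMTS19: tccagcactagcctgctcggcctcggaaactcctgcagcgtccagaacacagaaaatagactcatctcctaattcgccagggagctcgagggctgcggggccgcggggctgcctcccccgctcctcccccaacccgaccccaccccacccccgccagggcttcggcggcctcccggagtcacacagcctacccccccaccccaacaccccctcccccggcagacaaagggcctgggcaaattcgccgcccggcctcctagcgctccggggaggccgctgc

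ADAMTS19, a secreted protease whose loss is linked to heart valve disease, had the widest range of the family in both courses. In the RAF course ADAMTS19 measured 10.0/9.8 for T0, 7.3/7.2 for 12 h, 8.5/8.7 for 24 h, 8.5/8.2 for 48 h, 8.2/8.2 for 72 h, and 7.8/7.8 for 96 h. The T0 pair was highest, the 12 h pair lowest, and the group means fell from 24 h to 96 h. The fall at 12 h was 6.28-fold (-2.65 ± 0.11, limma adjusted p = 8.54e-06). In the replicative course it measured 5.3/5.4 for T0, 7.4/7.3 for 144 h, 9.4/9.4 for 264 h, 8.9/8.8 for 432 h, 6.7/6.6 for 624 h, 4.8/4.8 for 792 h, 5.0/5.0 for 1008 h, 5.2/5.1 for 1368 h, and 5.3/5.2 for 2112 h. The rise from T0 was 16.6-fold at 264 h (4.05 ± 0.06, limma adjusted p = 3.77e-12), and the 792 h pair lay below T0 (-0.55 ± 0.06, limma adjusted p = 2.68e-05). The 4 labels from 144 h to 624 h overlapped no other replicative label, and the levels at 144 h, 264 h and 432 h lay within the RAF range. The fall at 1368 h (-0.20 ± 0.06, limma adjusted p = 0.0459) was lost without the second 1368 h array (adjusted p = 0.268), without either T0 array (0.0502 and 0.262) and in 3 other fits.

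**Figure D2:**
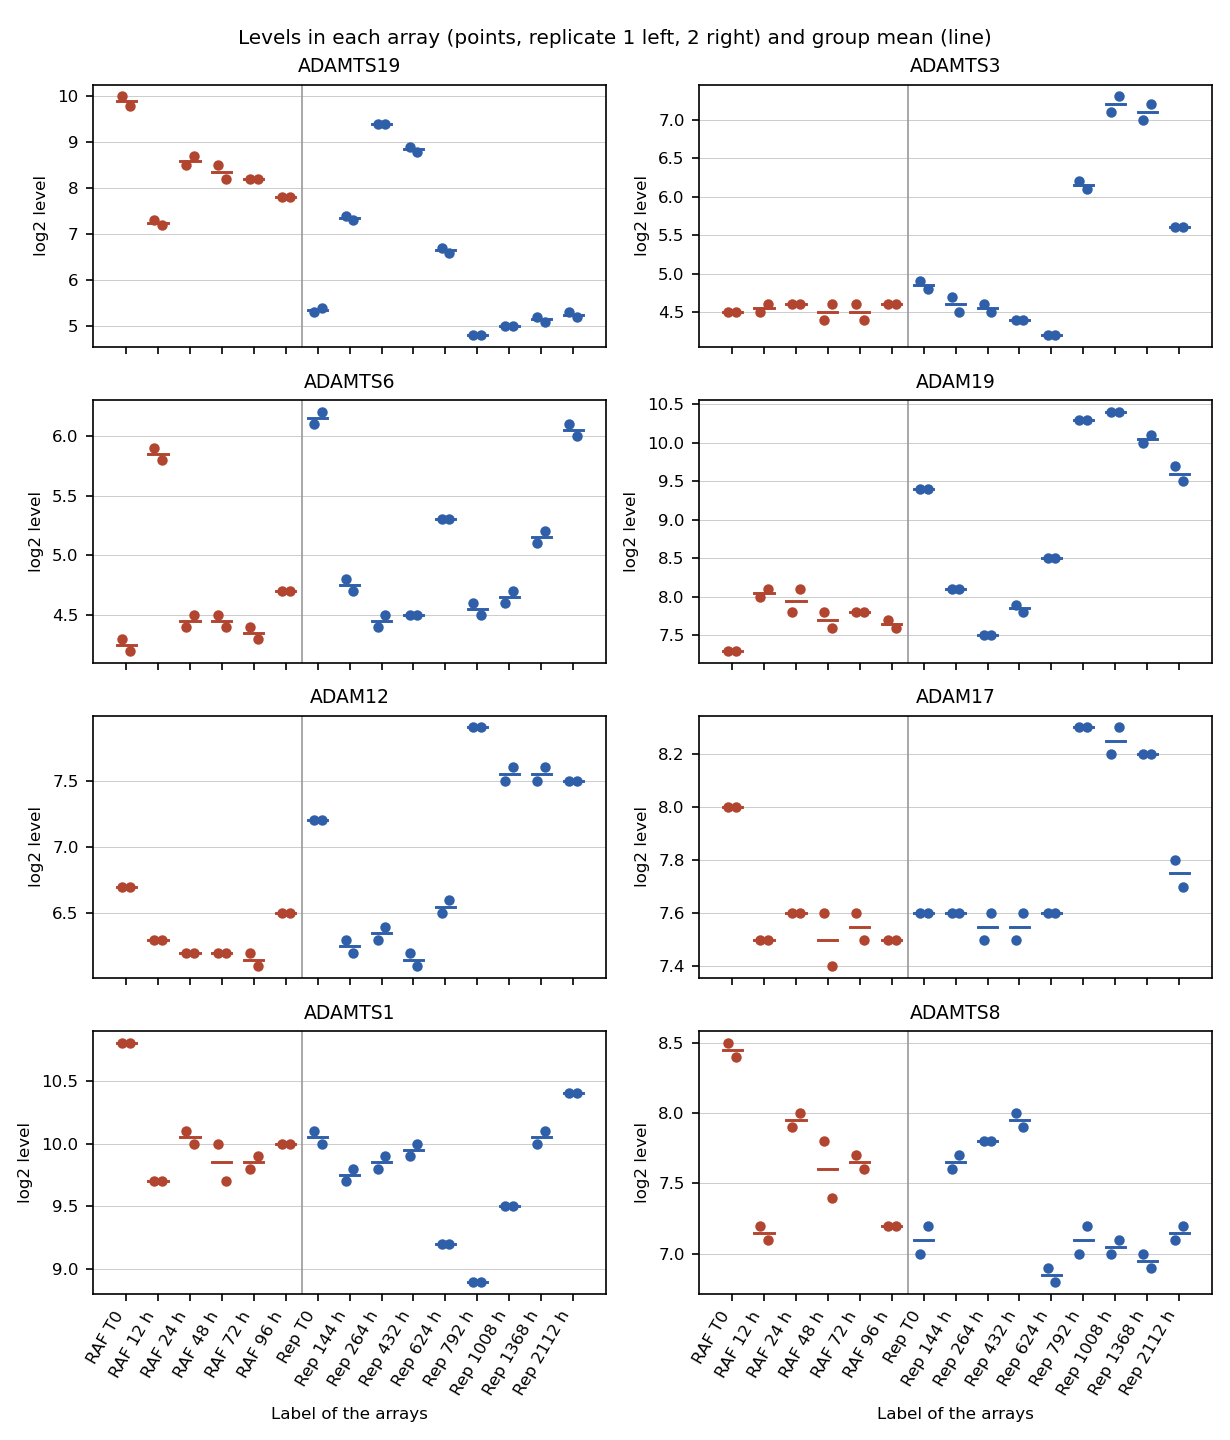
Each panel plots the log2 level of 1 member in every array against the label, with points for arrays (replicate 1 left, 2 right) and lines for group means, RAF left of the grey line and replicative right of it. ADAMTS19 runs from 4.8 to 10.0, ADAMTS3 rises only in replicative arrays from 792 h on, and ADAMTS6 peaks at RAF 12 h and at replicative T0 and 2112 h.

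ADAMTS18, a secreted member of unsettled substrate, was higher than T0 at replicative 792 h (0.55 ± 0.07, limma adjusted p = 0.000124) and 1008 h and at no RAF label. ADAMTS13, the plasma protease of von Willebrand factor, spanned 0.30 over the replicative labels and 0.05 over the RAF labels. ADAMTS16 and ADAMTS17, both secreted proteases of little known substrate, were called nowhere. Of the 5 ADAMTS-like proteins, ADAMTSL1 and ADAMTSL4 passed both joint tests and ADAMTSL5 the replicative one (range 0.25). ADAMTSL1, a matrix protein also named punctin, measured 5.4/5.4 for RAF T0, 6.0/6.0 for 12 h, 5.4/5.2 for 24 h, 5.3/5.5 for 48 h, 5.4/5.5 for 72 h, and 5.6/5.7 for 96 h. Only the 12 h pair stood clear of T0 by the test (0.60 ± 0.09, limma adjusted p = 0.00195). Its replicative group means ran from 5.40 at 432 h to 6.15 at T0. ADAMTSL4, which binds fibrillin-1 and is mutated in lens dislocation, spanned 0.35 over the RAF and 0.80 over the replicative labels, with its replicative peak at 432 h and its lowest mean at 792 h. ADAMTSL2, a binder of LTBP1, and ADAMTSL3 were called against no T0.

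Against RAF T0, 16 members were called at 12 h (6 higher and 10 lower, against 9.7% and 9.73% of all features, 19.4% in either direction). At 24 h, 4 were higher and 6 lower (2.64% and 3.26%), and at 48 h, 1 was higher and 5 lower (3.96% and 4.35%). At 72 h, 4 were higher and 6 lower (4.34% and 4.47%). At 96 h, 2 were higher and 10 lower (7.97% and 7.71%). The median difference of the 34 members was -0.05 at 96 h, -0.025 at 24 h and 48 h, and 0 at 12 h and 72 h, and that of all features was 0 at each. ADAM12, ADAM17, ADAMTS1 and ADAMTS19 were lower than T0 at all 5 later labels, 0 members were higher at all 5, and 14 were called at none. The shares of all features with these patterns were not computed. All these comparisons share the RAF T0 pair. The ADAM9 call at 12 h was lost without any one of its 4 arrays, and the ADAM15 call at 24 h without either 24 h array. The ADAM17 call at 24 h was lost without any one of its 4 arrays (adjusted p from 0.067 to 0.077), and that at 72 h without the second 72 h array (0.0515). The ADAM19 and ADAMTS2 calls at 72 h were likewise lost without any one of 4 arrays (0.113 to 0.13 and 0.0961 to 0.183), and at 24 h without either T0 array (0.0747 and 0.0773 for ADAM19, 0.115 and 0.121 for ADAMTS2), with ADAMTS2 also lost without the second 24 h array (0.105). The ADAMTS9 calls at 24 h and 48 h were each lost without 3 of the 4 arrays (0.0637 to 0.067 and 0.106 to 0.146). ADAMTS8 at 72 h was lost without the second 72 h array (0.0556) or the first T0 array (0.0507). At 24 h the count of 10 fell to 4 without the second 24 h array, to 5 without the first T0 array and to 4 without the second. At 72 h it fell from 10 to 6 without the first and to 4 without the second 72 h array. At 48 h the split was 2 higher and 5 lower after quantile normalization, and 11 members passed when dim features were left out. These counts are given without the shares of all features in those fits.

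At RAF 96 h the lower members were ADAMTS19 (-2.10 ± 0.11), ADAMTS8 (-1.25 ± 0.12), ADAMTS1 (-0.80 ± 0.09), ADAM17 (-0.50 ± 0.07), ADAMTSL4, ADAMTS15, ADAM15, ADAM9, ADAMTS10 and ADAM12. The higher ones were ADAMTS6 (0.45 ± 0.07) and ADAMTS4 (0.15 ± 0.04). By role, 4 of 8 sheddases and 3 of 6 proteoglycanases were lower and 0 of 3 procollagen N-propeptidases passed, beside 7.71% of all features lower and 15.7% called in either direction. Differences between roles were not tested. The strongest fall was 4.29-fold for ADAMTS19 (limma adjusted p = 4.49e-05). Over the same arrays 23 of 23 genes of G2 and mitosis rose, with a median of 2.55, and their part in these differences was not tested. ADAM12 lost its call without either T0 array, ADAM9 without the second T0 array, and ADAMTS4 in 7 alternatives. The calls of ADAMTSL4, ADAMTS15 and ADAMTS10 were not followed one by one under the alternatives, so they are not shown to hold.

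Against replicative T0, 24 members were called at 144 h (14 higher and 10 lower, against 30.1% and 28.6% of all features). At 264 h, 13 were higher and 11 lower (30.4% and 26.5%), and at 432 h, 13 and 8 (31.2% and 26.8%). At 624 h, 6 were higher and 6 lower (7.17% and 6.67%). At 792 h the counts were 9 and 7 (13.1% and 11.7%), at 1008 h 8 and 6 (11.7% and 11.3%), and at 1368 h 6 and 4 (8.74% and 8.41%). At 2112 h, 3 members were higher and 0 lower (1.34% and 1.46%, 2.8% in either direction). At an unadjusted p under 0.05 the 2112 h counts were 5 higher and 2 lower. The share of all features at that threshold was not computed, and the shares above do not apply to it. Of the members, 9 were higher than T0 at some labels and lower at others: ADAM9, ADAM12, ADAM19, ADAMTS1, ADAMTS3, ADAMTS4, ADAMTS5, ADAMTS19 and ADAMTSL4. The share of all features with this pattern was not computed. The small falls of ADAMTS3 at 144 h and 264 h and of ADAMTS1 at 264 h were each lost without the first T0 array (adjusted p = 0.152, 0.0825 and 0.0981) and without 1 array of the later label. From 144 h to 432 h the share of members called lay near the large share of all features called there (either direction, 58.7%, 56.9% and 58% of features).

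The members higher at 2112 h were ADAMTS3 (0.75 ± 0.09, limma adjusted p = 0.000873), ADAMTS1 (0.35 ± 0.06, limma adjusted p = 0.00821) and ADAM12 (0.30 ± 0.06, limma adjusted p = 0.0259). ADAMTS3 kept its call whichever of the 4 arrays was left out. ADAM12 lost its call without any one of them (adjusted p from 0.122 to 0.154), and ADAMTS1 without either 2112 h array or the second T0 array (0.0662 to 0.0777). The number called then fell from 3 to 1 without the first 2112 h array or the second T0 array. Over the same arrays 17 of 23 mitotic genes fell, with a median of -0.50, and 8 of 11 TGF-beta-responsive and contractile genes fell (median -0.50). Their part in these differences was not tested.

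**Figure D3:**
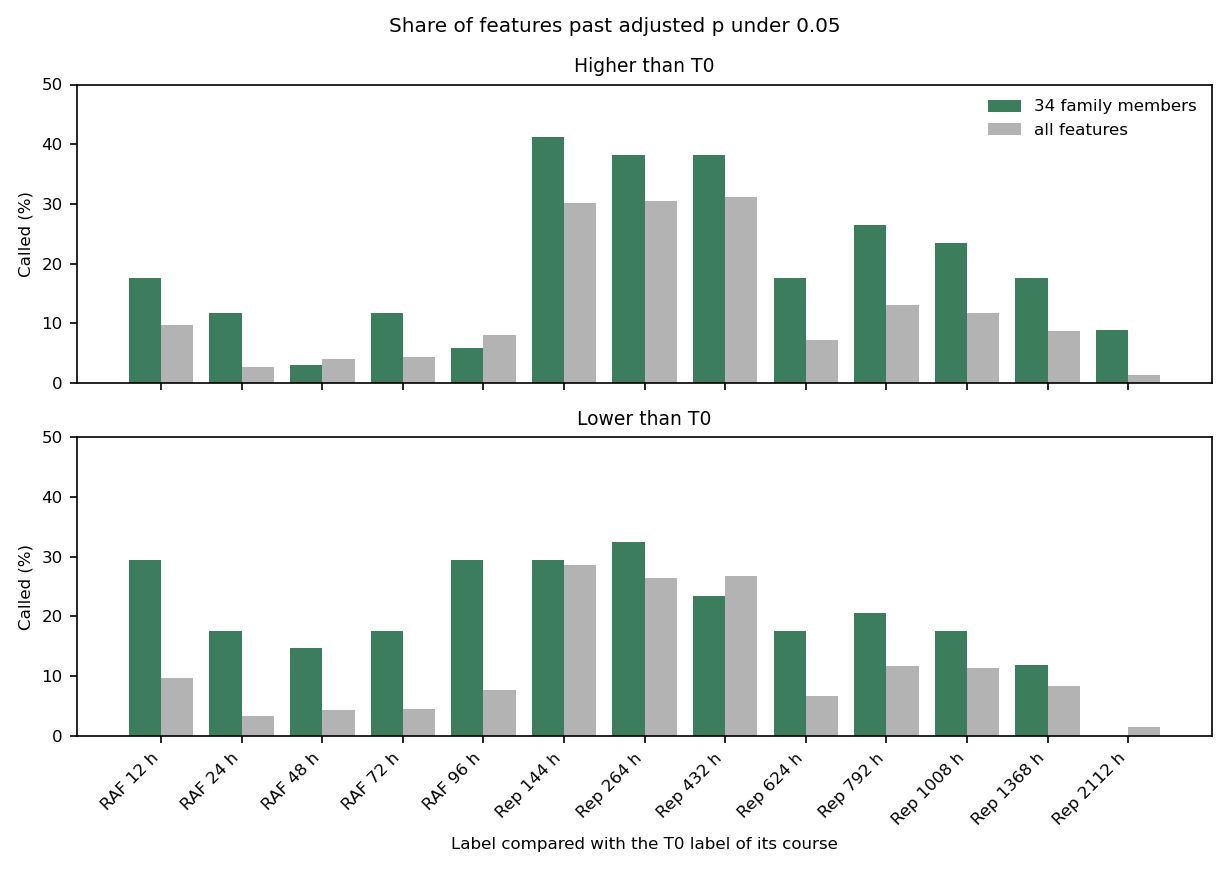
Bars give the share of features past an adjusted p under 0.05 at each label against its T0, higher in the upper panel and lower in the lower panel, for the 34 members (green) and all features (grey). At RAF 96 h the member bar is 5.88% higher and 29.4% lower, against 7.97% and 7.71% of all features.

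Replicative 2112 h was also set against 144 h, since both, if the labels hold, were grown under 21% O2. Here 10 members were higher and 16 lower (29.8% and 30.9% of all features, 60.7% in either direction), and the median member difference was -0.13, against 0 over all features. ADAM19 (1.5 ± 0.06), ADAMTS6 (1.30 ± 0.07), ADAM12 (1.25 ± 0.06) and ADAMTS3 (1 ± 0.09) were the 4 with the largest rises. ADAMTS19 (-2.10 ± 0.06), ADAMTS9 (-1.55 ± 0.08), ADAM23 (-1.05 ± 0.08) and ADAM10 (-0.80 ± 0.05) had the largest falls. The 2 labels lie on opposite sides of the first component, and 23 of 23 mitotic genes were higher at 2112 h (median 1), whose part here was not tested. The rise of ADAM17 (0.15 ± 0.06, limma adjusted p = 0.033) was 0.07 after quantile normalization (adjusted p = 0.347) and was lost without either 144 h array (0.0899 and 0.0904) or the first 2112 h array (0.219). The fall of ADAMTS2 (-0.15 ± 0.05) was lost without 3 of the 4 arrays and in the model of all 30 arrays (adjusted p = 0.0521).

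The labels 432 h and 624 h are neighbours in time and also lie on opposite sides of that component. Between them 7 members were higher at 624 h and 12 lower (21.1% and 24.4% of all features, 45.4% in either direction). The largest differences were those of ADAMTS19 (-2.20 ± 0.06), ADAMTS8 (-1.10 ± 0.09) and ADAMTS9 (-1 ± 0.08) on the lower side and of ADAMTS5 (0.80 ± 0.12) and ADAMTS6 (0.80 ± 0.07) on the higher side. Among the smaller ones, the calls of ADAM9 (-0.20) and ADAMTS4 (0.20) were each lost without 1 array in 2 of the 4 fits. That of ADAM9 was also lost after quantile normalization, at -0.09 (adjusted p = 0.171).

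The T0 pairs of the courses were compared directly in a model of all 30 arrays. RAF T0 was higher than replicative T0 for 16 members and lower for 9 (30.7% and 28.2% of all features). The difference was 4.55 ± 0.09 for ADAMTS19, a 23.4-fold higher level (limma adjusted p = 4.77e-17), 1.35 for ADAMTS8, -2.10 for ADAM19 and -1.90 for ADAMTS6. Course and mitotic level both differ between these pairs and cannot be told apart: 23 of 23 mitotic genes were lower at RAF T0, with a median of -3.40.

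The change from T0 to RAF 96 h was then set against the change from T0 to replicative 2112 h as a difference of differences. It passed as positive for 2 members and as negative for 11 (7% and 6.66% of all features). The positive members were ADAMTS6 (0.55 ± 0.09, limma adjusted p = 0.00038) and ADAMTS2 (0.45 ± 0.09, limma adjusted p = 0.00183). The most negative were ADAMTS19 (-2 ± 0.12, limma adjusted p = 1.86e-09), ADAMTS8 (-1.30 ± 0.14, limma adjusted p = 3.23e-06) and ADAMTS1 (-1.15 ± 0.11, limma adjusted p = 2.69e-07). ADAM12 and ADAMTS1 passed in opposite directions in the 2 courses, lower at RAF 96 h and higher at 2112 h. The ADAM12 call at 2112 h was lost without any one of its arrays, and that at RAF 96 h without either T0 array. The ADAMTS1 call at 2112 h was lost without either 2112 h array or the second T0 array. The count fell from 13 to 8 without the first replicative T0 array, and ADAM15 lost its call in 7 of 8 fits that left out 1 array. ADAM9 lost its call without the second RAF 96 h array (adjusted p = 0.0546), without the first replicative T0 array (0.0574) and in the model of the compared groups only (0.0556).

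**Figure D4:**
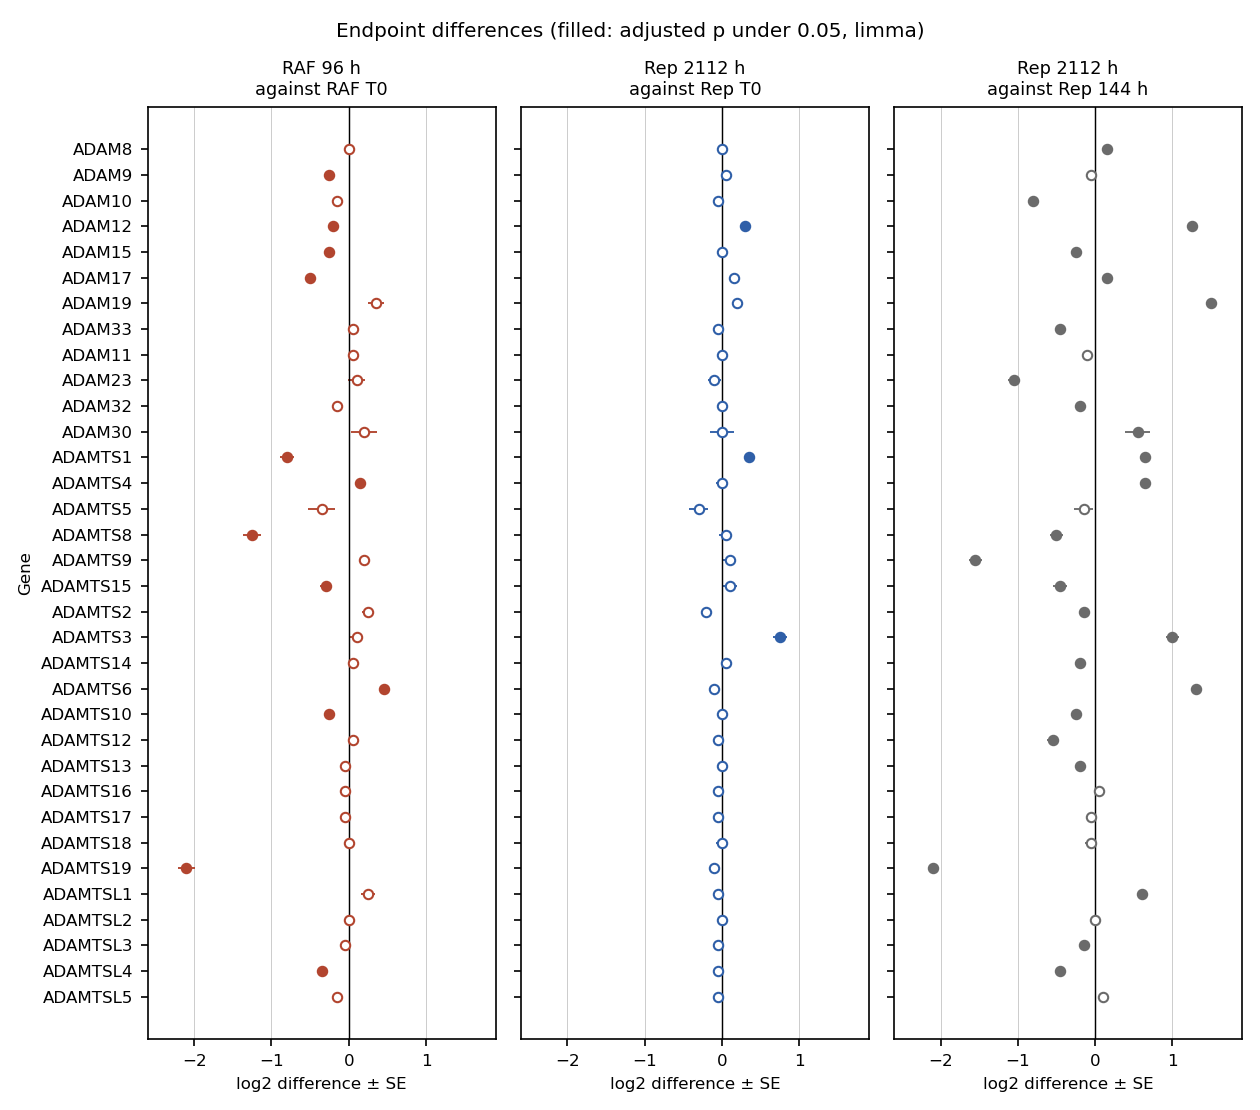
Points give the log2 difference of each member with its standard error (bars) for the RAF endpoint (96 h, T0 subtracted), the replicative endpoint (2112 h, T0 subtracted) and 2112 h less 144 h, filled where the adjusted p was under 0.05. In the RAF panel 10 filled points lie left of 0 and 2 right of it, in the middle panel 3 lie right, and in the last 16 lie left and 10 right.

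Genes that work with the family were described by lists, whose counts stand beside 15.7% of all features called in either direction at RAF 96 h, 2.8% at 2112 h against T0 and 60.7% at 2112 h against 144 h. Of 16 measured partners and inhibitors of the sheddases, 3 were higher and 5 lower at RAF 96 h (median 0), 3 and 1 at replicative 2112 h against T0 (median 0.05), and 9 and 7 at 2112 h against 144 h (median 0.30). TIMP3, the inhibitor of ADAM17 and of the aggrecanases, was higher in each: 0.90 ± 0.06 at RAF 96 h, 0.60 ± 0.08 at 2112 h against T0 and 1.05 ± 0.08 at 2112 h against 144 h. RECK, a membrane inhibitor of ADAM10, was lower in each, by -0.90 ± 0.07, -0.35 ± 0.06 and -1.5 ± 0.06. TSPAN14, a tetraspanin that carries ADAM10, was higher at RAF 96 h (0.55 ± 0.07), and FURIN, a convertase that removes the prodomain of many ADAMs, was higher at 2112 h against T0 (0.45 ± 0.05) and lower at RAF 96 h (-0.30 ± 0.07).

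Of 25 measured membrane proteins that ADAMs shed, 3 were higher and 7 lower at RAF 96 h (median -0.15), 3 and 4 at 2112 h against T0 (median 0), and 11 and 6 at 2112 h against 144 h (median 0.10). VCAM1, an adhesion molecule cut by ADAM17, was lower at RAF 96 h (-2.55 ± 0.23) and at 2112 h against 144 h (-4.00 ± 0.11). NRG1, the neuregulin that ADAM19 and ADAM17 release, was lower at RAF 96 h (-0.95 ± 0.07) and higher at 2112 h against T0 (1.15 ± 0.06), and EREG, an EGF receptor ligand, was also higher there (1.30 ± 0.13). SDC1 and HBEGF were each 0.40 higher at RAF 96 h, and HBEGF was 0.40 lower (-0.40 ± 0.09) at 2112 h against T0.

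Of 21 matrix substrates, 6 were higher and 2 lower at RAF 96 h (median 0), 0 and 2 at 2112 h against T0 (median 0), and 4 and 10 at 2112 h against 144 h (median -0.10). COL1A1 (0.85 ± 0.10), NID1 (0.80 ± 0.10) and BGN (0.70 ± 0.05) were higher and the proteoglycan DCN (-0.60 ± 0.07) lower at RAF 96 h. THBS1 (-0.55 ± 0.05) and DCN (-0.20 ± 0.05) were lower at 2112 h against T0. Of 15 microfibril genes, 2 were higher and 1 lower at RAF 96 h, 0 and 1 at 2112 h against T0, and 5 and 7 at 2112 h against 144 h, each with a median of 0. MFAP4 was -0.75 ± 0.09 at RAF 96 h, and FBN2, fibrillin-2, was -1.65 ± 0.11 at 2112 h against 144 h. For scale, 8 of 17 ERK output genes were higher and 0 lower at RAF 96 h (median 0.30), and 5 and 0 at 2112 h against T0 (median 0.25). The mean level of these 17 genes ran from 7.64 (T0) to 7.88 (96 h) over the RAF labels. It ran from 7.67 to 7.89 over replicative 144, 264, 432 and 624 h. At replicative T0 it was 8.58, and from 792 h on it ran from 8.81 to 8.94. The source of these levels was not tested. The TGF-beta-responsive list had 4 higher and 4 lower of 11 at RAF 96 h. Of the marker lists, fibroblast genes had 4 higher and 4 lower of 10 at RAF 96 h, 2 and 1 at 2112 h against T0, and 1 and 8 at 2112 h against 144 h. Epithelial genes had 2 and 0, 0 and 0, and 2 and 2 of 7 in the same comparisons, endothelial genes 0 and 0, 0 and 0, and 1 and 2 of 7, and leukocyte genes 0 and 1, 0 and 0, and 1 and 1 of 4.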

How the data were processed

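Total RNA of WI-38 cells was measured on 30 arrays in 15 labelled groups of 2. The deposited values were read as log2 levels from their range; the authors' log base, summarisation and normalization were not stated in labels or headers, the values are rounded to steps of 0.1, and no background calls could be made, so the number of arrays limits the precision. Every value column mapped to a labelled sample (0 columns were not used). The platform's probe table named features: 21055 with 1 symbol, 1406 with several, which were tested and never named, and 29868 with none.

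The test was limma (version 3.58.1, R version 4.3.3), with lmFit and eBayes (two-sided, Benjamini-Hochberg over all features, called at an adjusted p under 0.05), in models of the 12 RAF arrays (6 residual degrees of freedom), the 18 replicative arrays (9) or all 30 (15). Joint tests are moderated F tests. The script was tested on simulated data. Error terms are standard errors of the model unless given as SD. The members and the 12 gene lists (157 of 174 genes measured) were chosen with earlier results of these data known. Per course, the 10 members with the widest range of group means among those past the joint test (ties included) are given array by array, the other members by range and calls, and up to 3 genes per list and direction by size at each endpoint. FURIN at RAF 96 h was named after its value was seen. Promoters are from RefSeq.

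Alternatives were quantile normalization, leaving out features below the median mean, other sets of arrays in the model, a trended robust prior, the replicate number as a block and leaving out each array. Replicate numbers did not pair arrays consistently over the labels. Deviations of same-numbered arrays correlated at -0.06 to 0.36 over 15 RAF label pairs (3 over 0.1) and at -0.28 to 0.31 over 36 replicative ones (9 over 0.1). Some label pairs thus shared deviations, whose source was not tested.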

Additional observations from a re-analysis of the deposited data

Results flagged for a closer look

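In all, 13 members were marked because their change from T0 to RAF 96 h differed from their change from T0 to replicative 2112 h by a test of the difference (limma, adjusted p under 0.05). The differences, RAF minus replicative on the log2 scale, were -2 for ADAMTS19, -1.30 for ADAMTS8, -1.15 for ADAMTS1, -0.65 for ADAM17, -0.65 for ADAMTS3, -0.50 for ADAM12, -0.40 for ADAMTS15, -0.30 for ADAM9, -0.30 for ADAMTSL4, -0.25 for ADAM15, -0.25 for ADAMTS10, 0.45 for ADAMTS2 and 0.55 for ADAMTS6. The ADAM15 call was lost in most fits that left out 1 array and the ADAM9 call in some. The calls of ADAMTS10, ADAMTS15 and ADAMTSL4 were not followed one by one in those fits, so they are not shown to hold. Both changes rest on T0 pairs that themselves differ, by 4.55 for ADAMTS19. Groups of 2 arrays are too small to test for single outlying arrays.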

How the results depend on the processing

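Of 103 counts of members called under settings other than leaving out 1 array, 101 were within 1.5 times the reported count. The exceptions were RAF 48 h (11 of 27 members left in the fit, against 6, with dim features left out) and the RAF joint test without RAF T0 (9 against 16). Both counts are given without the shares of all features in those fits. With 1 array left out, the counts ran from 8 to 9 at RAF 96 h, 13 to 14 at 12 h, 4 to 8 at 24 h, 5 to 6 at 48 h, 4 to 8 at 72 h and 11 to 18 in the RAF joint test. In the replicative course they ran from 1 to 2 at 2112 h, 21 to 22 at 144 h, 20 to 23 at 264 h, 20 to 21 at 432 h, 11 to 13 at 624 h, 14 to 17 at 792 h, 12 to 13 at 1008 h, 9 to 10 at 1368 h, 22 to 24 for 2112 h against 144 h, 15 to 17 for 624 h against 432 h and 28 to 29 in the joint test. They ran from 8 to 12 for the difference of the changes and from 22 to 25 between the T0 pairs. A lone array was taken to vary like the other groups, and the cause of these moves was not tested.

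With the replicate number as a block, which does not pair these arrays consistently, the counts were 11 at RAF 96 h, 3 at replicative 2112 h and 13 for the difference. The block lost 3 calls of named members: ADAMTS4 at RAF 96 h (adjusted p = 0.0631), ADAMTS9 at 48 h (0.0618) and ADAMTS2 at 72 h (0.0515). Among calls of the named members, 1547 held and 91 were lost, 78 of the latter with 1 array left out. No direction turned. ADAMTS3 and ADAMTS6 lie among the dim features and have no value without them. The same holds for ADAMTS9 in the model of the replicative arrays. A fit without the 144 h, 264 h and 432 h labels was chosen after seeing the data. There 4 members passed at 2112 h, a count given without its share of all features. Each member has 1 feature, so averaging several gave no value.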
